A study of Mus musculus with 8 samples.

Results

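The 42 genes described here act in homologous recombination, the Fanconi anaemia pathway, end joining, mismatch repair, single-strand break repair and the DNA damage checkpoints. They were listed by name under these functions, with earlier results of these data known, so the counts below describe these genes and are no independent evidence of a direction. Of the 42, 40 were measured, each by its brightest probe set with a single gene symbol, and Rbbp8 and Xrcc2 were not analysed here. All 40 were among the 12394 genes tested, of 18140 with such a probe set. The histone gene listed under its older symbol H2afx is called H2ax below.

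The cells were V6.5 mouse embryonic stem cells, a cultured line. The study lowered subunits of condensin and cohesin, the ring complexes that fold chromosomes and hold sister chromatids together, and measured mRNA in whole cultures on 8 Affymetrix arrays, 2 per group. In the CapH2 group, hairpins 3 and 4 against Ncaph2, a subunit of condensin II, were used on 1 array each. In the Smc2 group, hairpins 1 and 2 against Smc2, a core subunit of both condensins, were used on 1 array each. The Smc1 group had 2 replicates of 1 hairpin against Smc1a, a core subunit of cohesin. The GFP group had 2 replicates of 1 hairpin against GFP and served as the control. All 4 groups had received virus with 8 µg/ml polybrene, then 4 µg/ml puromycin for 4 days, and RNA was taken on day 5 after infection. With 1 hairpin in the Smc1 group, the loss of Smc1a and any other effect of that hairpin cannot be told apart. In these bulk samples, fewer cells of a type and less RNA per cell cannot be told apart either.

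Cells meet broken or damaged DNA with kinases of the ATM and ATR pathways, which halt the cell cycle, and with repair machines that differ by lesion. Homologous recombination copies the intact sister chromatid, end joining ligates the broken ends, the Fanconi anaemia proteins remove crosslinks between strands, and mismatch repair corrects copying errors. Cohesin holds the sisters together and is itself recruited to breaks, and many repair genes are transcribed most in the S phase of the cycle, in which mouse embryonic stem cells spend much of their time.

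Values below are the deposited intensities on a linear scale, in array units, which compare 1 probe set between arrays but not different genes. A change is the difference between group means of log2(intensity + 16), with the standard error (SE) of a limma fit over all 8 arrays. A call is an adjusted p below 0.05, with the Benjamini-Hochberg adjustment taken over every gene tested.

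Each hairpin lowered its target. CapH2 arrays read 398 and 429.5 for Ncaph2, against 3469 and 3168 with GFP. Smc2 arrays read 2234 and 2859 for Smc2, against 8756 and 7146 with GFP. Smc1 arrays read 535 and 454 for Smc1a, against 4165 and 3662 with GFP. Array medians ran between 62.5 and 74.5. The ratio of 3' to 5' Actb probe sets, a measure of RNA or labelling quality, was 1.67 and 1.98 for CapH2, 1.82 and 2.18 for Smc2 and 1.70 and 1.84 for Smc1, against 2.18 and 2.04 for GFP. The summed intensity of 5 embryonic stem cell markers was 28255 and 36789 on the Smc1 arrays, against 56610 and 59857 on the GFP arrays, and all 5 were called lower. The sum of 6 trophectoderm markers was 51463 and 36731 on the Smc1 arrays, against 15551 and 21976 on the GFP arrays, and Krt19 and Cdx2 were called higher. The sum of 5 primitive endoderm markers was 798 and 679 on the Smc1 arrays, against 318 and 479 on the GFP arrays, and 1 of the 4 tested, Dab2, was called higher. That sum was 810 and 518 on the CapH2 arrays and 388 and 501.5 on the Smc2 arrays. The median change of the 4 against GFP was 0.65 in CapH2, 0.39 in Smc2 and 0.54 in Smc1, and it was 0.01 in Smc1 against both condensin groups. Of 7 tested fibroblast feeder markers, 1 was called higher, the 9 measured summed to between 12753 and 19211 on all 8 arrays, and Lum and Dcn were below the array median on all 8.

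**Figure D1:**
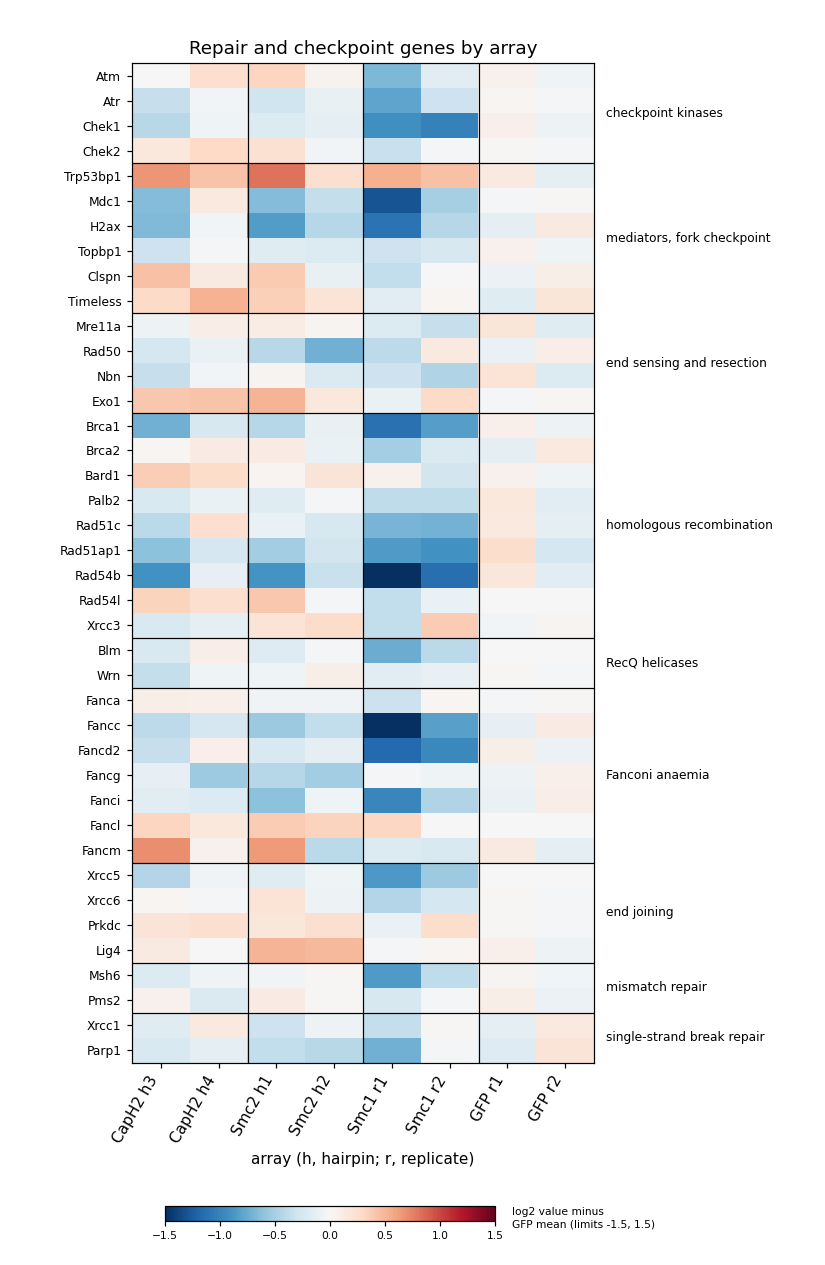
Each of the 40 genes (rows, grouped by role) on each of the 8 arrays (columns), coloured by its log2(intensity + 16) minus the mean of that gene on the GFP arrays. The Smc1 columns are below 0 for most rows, with Trp53bp1 above 0 in all 3 knockdowns.

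In the Smc1 knockdown, 8 of the 40 repair and checkpoint genes fell against GFP and none was called higher. The 8 were the checkpoint kinase Chek1, the recombination genes Brca1, Rad51ap1 and Rad54b, the Fanconi anaemia genes Fancc and Fancd2, the end-joining gene Xrcc5 and the mismatch repair gene Msh6, and their log2 changes lay between -1.55 and -0.62. That is 20% of the 40, where 4.69% of all genes tested were called lower, and 9.3% of all genes were called higher. The counts by role below are to be read beside these shares. In roles of 2 to 9 genes, having none called higher says little beside 9.3%. At an unadjusted limma p under 0.05, 1 of the 40 was higher, Trp53bp1, against 18.7% of all genes. The share of all genes lower at that threshold was not computed. The median change of the 40 was -0.31, against 0.03 over all genes tested, and 34 of the 40 were below 0, against 47.7% of all genes. Both Smc1 arrays lay below both GFP arrays for 24 of the 40 (60%), against 28.4% of all genes, and above both for 1 of the 40 (Trp53bp1, 2.5%), against 34.5% of all genes. Both Smc1 arrays lay below all 6 other arrays for 16 of the 40 (40%), against 11.1% of all genes, and above all 6 for none, against 17.2% of all genes.

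These calls depended on which arrays were kept. Without Smc1 replicate 1, and without GFP replicate 1, none of the 40 was called, and 138 and 228 of all genes were, against 1734 with all arrays. Without GFP replicate 2, Chek1 and Rad51ap1 were called. Without Smc1 replicate 2, Rad51ap1 was no longer called while Mdc1 and H2ax were. Leaving out either CapH2 array added Mdc1 to the 8, and leaving out either Smc2 array added Fanci. With the Actb ratio as a covariate, 1 of the 40, Chek1, was called lower, and 569 of all genes were called in either direction. The changes were also smaller in that fit, at -0.63 for Rad54b, -0.55 for Brca1, -0.55 for Rad51ap1 and -0.43 for Xrcc5, against -1.34, -0.97, -0.88 and -0.70 without the covariate.

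**Figure D2:**
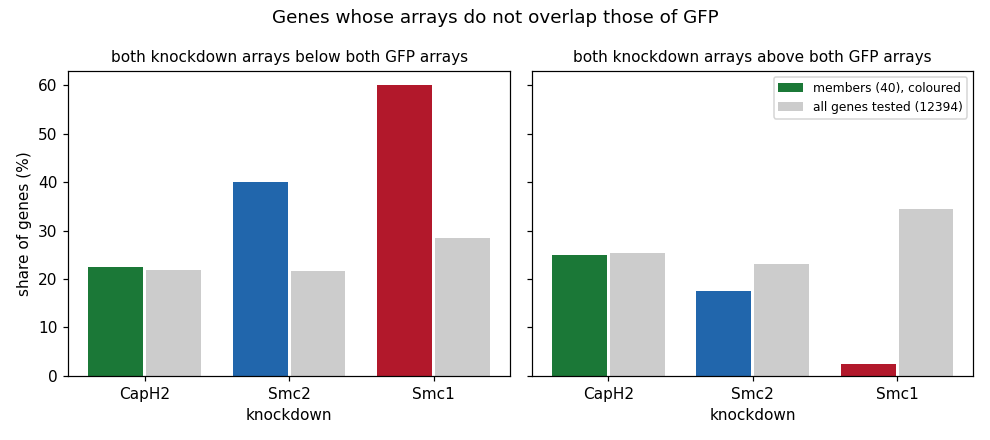
Percent of the 40 genes and of all 12394 genes tested whose 2 arrays in a knockdown both lay below, or both lay above, the 2 GFP arrays. For Smc1 the 40 genes had 60% below and 2.5% above, where all genes had 28.4% below and 34.5% above.

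Of the 4 checkpoint kinases, Chek1 fell and the others were not called in the Smc1 knockdown. Chek1, the kinase that ATR activates to restrain replication and entry into mitosis, measured 2278 and 2909 with CapH2, 2652 and 2759 with Smc2 and 1604 and 1509.5 with Smc1 knocked down, against 3212 and 2899 with GFP. The Smc1 arrays were the lowest of the 8, and 3 of the 4 condensin arrays lay below both GFP arrays. The Smc1 change against GFP was -0.96 (SE 0.172, limma adjusted p = 0.00786). Its upstream kinase Atr measured 1245 and 1744 on the Smc1 arrays, against 2215 and 2126 on the GFP arrays, without overlap, and its change of -0.55 (SE 0.205, limma adjusted p = 0.0985) did not pass the threshold. The further Atr probe sets did not overlap either, with changes of -0.73 and -0.78 in Smc1. They were also below 0 in CapH2 (-0.58 and -0.40) and Smc2 (-0.55 and -0.65). Atm, the kinase activated by double-strand breaks, measured 638 and 914 on the Smc1 arrays, against 1076 and 984 on the GFP arrays, also without overlap, with a change of -0.42 (SE 0.220, limma adjusted p = 0.224). The further Atm probe set overlapped between Smc1 and GFP, with a change of -0.20. Chek2, the effector kinase of ATM, overlapped between the groups, with 997 and 1248 on the Smc1 arrays, against 1281 and 1241 on the GFP arrays and a change of -0.17.

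None of the 6 damage mediators and replication checkpoint genes was called in the Smc1 knockdown, where at an unadjusted limma p under 0.05 Mdc1 and H2ax were lower and Trp53bp1 was higher. Mdc1, the scaffold that binds phosphorylated H2AX at breaks, measured 1004 and 1746 on the Smc1 arrays, against 2461 and 2502 on the GFP arrays. Its Smc1 values lay below the GFP values but far from each other, and the change was -0.90 (SE 0.302, limma adjusted p = 0.0746). H2ax, the histone variant phosphorylated around breaks, measured 4581 and 7352 on the Smc1 arrays, against 9025 and 10883 on the GFP arrays, with a change of -0.77 (SE 0.262, limma adjusted p = 0.0772). Trp53bp1, which protects broken ends from resection and favours end joining, measured 4223 and 3588 with CapH2, 4705 and 3135 with Smc2 and 3843 and 3625 with Smc1 knocked down, against 2914 and 2431 with GFP. All 6 knockdown arrays lay above both GFP arrays for this probe set. The further Trp53bp1 probe sets did not share 1 direction: in CapH2, Smc2 and Smc1 against GFP the brightest of them had changes of 0.40, 0.38 and 0.37, the next -0.02, -0.03 and -0.26, and another -0.19, -0.63 and -0.22. Its changes were 0.55 (SE 0.206, limma adjusted p = 0.351) in CapH2, 0.53 (SE 0.206, limma adjusted p = 0.353) in Smc2 and 0.49 (SE 0.206, limma adjusted p = 0.140) in Smc1, so that it was called in none of these comparisons, which share their GFP arrays. The other 3, Topbp1 (the activator of ATR), Clspn (the adaptor through which ATR activates Chek1) and Timeless (a fork protection factor), had Smc1 changes of -0.27, -0.18 and -0.07.

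The 4 genes of end sensing and resection had no limma call in Smc1, where 4.69% of all genes were called lower and 9.3% higher. At an unadjusted limma p under 0.05 there were 0 of the 4, where 18.7% of all genes were higher. The 4 genes are Mre11a, Rad50 and Nbn, the complex that binds broken ends, and Exo1, a nuclease that resects them. Mre11a measured 1968 and 1790.2 on the Smc1 arrays, against 2588 and 2002 on the GFP arrays, and Nbn measured 690.0 and 626 on the Smc1 arrays, against 997 and 742 on the GFP arrays. In both genes the Smc1 arrays lay below the GFP arrays, with changes of -0.28 and -0.38 (limma adjusted p = 0.329 and 0.269). Rad50 had a change of -0.12 and Exo1 of 0.09, and both overlapped between Smc1 and GFP.

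In homologous recombination, 3 of the 9 genes tested fell in the Smc1 knockdown (33.3%, against 4.69% of all genes). Of the 9, 8 were below 0, against 47.7% of all genes, and none was called higher, against 9.3% of all genes. Brca1, which promotes the resection of broken ends, measured 2479.5 and 3485 with CapH2, 3045 and 3807 with Smc2 and 1885 and 2309.8 with Smc1 knocked down, against 4326 and 3896 with GFP. The Smc1 arrays were the lowest, the 4 condensin arrays lay in between, and the change in Smc1 against GFP was -0.97 (SE 0.206, limma adjusted p = 0.0152). Rad54b, a DNA motor protein of recombination, measured 694 and 1209 with CapH2, 698 and 1036 with Smc2 and 439 and 592 with Smc1 knocked down, against 1480.3 and 1167 with GFP. Its Smc1 values lay below every other array, with a change of -1.34 (SE 0.301, limma adjusted p = 0.0185), the steepest in this role. Rad51ap1, which stimulates strand exchange, measured 1872 and 2400.1 with CapH2, 1987 and 2365 with Smc2 and 1592 and 1517 with Smc1 knocked down, against 3436 and 2397 with GFP. The Smc1 arrays were close to each other while the GFP arrays were far apart, and the change was -0.88 (SE 0.214, limma adjusted p = 0.0250).

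The other 6 recombination genes were not called in Smc1 against GFP. Rad51c, a recombination mediator, measured 411 and 407 on the Smc1 arrays, against 753 and 608 on the GFP arrays, with a change of -0.71 (SE 0.243, limma adjusted p = 0.0804). Brca2, a recombination mediator, and its partner Palb2 lay below GFP on both Smc1 arrays, with changes of -0.36 and -0.39 (limma adjusted p = 0.217 and 0.202). Rad54l, a motor protein related to Rad54b, also lay below GFP on both, with a change of -0.24. Bard1, the binding partner of BRCA1, and Xrcc3, which acts with Rad51c, overlapped with GFP and had changes of -0.10 and 0.01. Of the RecQ helicases, which unwind recombination intermediates, Blm measured 1508 and 1914 on the Smc1 arrays, against 2527 and 2565 on the GFP arrays, with a change of -0.58 (SE 0.187, limma adjusted p = 0.0657). Wrn had a change of -0.14, and neither helicase was called.

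Among the 7 Fanconi anaemia genes, Fancd2 and Fancc fell in the Smc1 knockdown and the other 5 were not called. Fancd2, the protein whose ubiquitination starts crosslink repair, measured 647 and 868 with CapH2, 700.2 and 741 with Smc2 and 359 and 412 with Smc1 knocked down, against 875 and 775 with GFP. The Smc1 arrays lay below all 6 others, which overlapped among themselves, and the change was -1.07 (SE 0.209, limma adjusted p = 0.0110). Fancc, a subunit of the core complex that ubiquitinates FANCD2, measured 221 and 246 with CapH2, 196 and 226 with Smc2 and 48.1 and 162 with Smc1 knocked down, against 269 and 324 with GFP. Smc1 replicate 1 was below the median of every array for this probe set, so the size of the change, -1.55 (SE 0.405, limma adjusted p = 0.0331), is not firm, and it was -0.81 without that array and -0.67 with the mean of all its probe sets. The further Fancc probe sets that were not below the array median on all 8 arrays had changes of 0.00 and -0.47 in Smc1 against GFP.

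Fanci, the partner of FANCD2, measured 713 and 1037 on the Smc1 arrays, against 1334 and 1522 on the GFP arrays, with a change of -0.72 (SE 0.242, limma adjusted p = 0.0747). Both Smc1 values lay below both GFP values. The core complex genes Fanca and Fancg had changes of -0.15 and -0.05 in Smc1. Fancl, the ubiquitin ligase of the core complex, had a change of 0.15, and Fancm, which anchors the complex to DNA, of -0.22.

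Of the 4 end-joining genes, Xrcc5 fell in the Smc1 knockdown and 3 were not called. Xrcc5 encodes Ku80, which with the product of Xrcc6 (Ku70) forms the ring that binds broken ends. It measured 2849 and 3737 with CapH2, 3409 and 3695 with Smc2 and 2118 and 2643 with Smc1 knocked down, against 3895 and 3836 with GFP. The Smc1 arrays were the lowest of the 8, with a change of -0.70 (SE 0.181, limma adjusted p = 0.0311). Xrcc6 measured 1778 and 2014 on the Smc1 arrays, against 2447 and 2379 on the GFP arrays, again with both Smc1 arrays lowest, and its change of -0.35 (SE 0.166, limma adjusted p = 0.187) was not called. Prkdc, the catalytic subunit of the DNA-dependent protein kinase, and Lig4, the ligase of this pathway, had changes of 0.08 and 0.01 and overlapped with GFP.

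In mismatch repair, Msh6 fell and Pms2 was not called. Msh6, which recognises mismatched bases, measured 13014 and 14348 with CapH2, 14558 and 15149 with Smc2 and 8267 and 11504 with Smc1 knocked down, against 15372 and 14534 with GFP. Both Smc1 arrays lay below all 6 others, although they stood further apart than the pairs of any other group, and the change was -0.62 (SE 0.154, limma adjusted p = 0.0276). Without Smc1 replicate 1 the Msh6 change was -0.38 (limma adjusted p = 0.224). Pms2, part of the nuclease that acts after recognition, had a change of -0.13. The single-strand break repair genes Xrcc1, a scaffold protein, and Parp1, the sensor of nicked DNA, had changes of -0.17 and -0.37. Neither was called, and both overlapped between Smc1 and GFP on these probe sets. The brightest further Parp1 probe sets did not overlap. One had 3249 and 4863 on the Smc1 arrays, against 5118 and 6915 on the GFP arrays (-0.58). Another had 2847.5 and 3718 on the Smc1 arrays, against 4320 and 5561 on the GFP arrays (-0.59). The dimmest Parp1 probe set overlapped (-0.33).

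**Figure D3:**
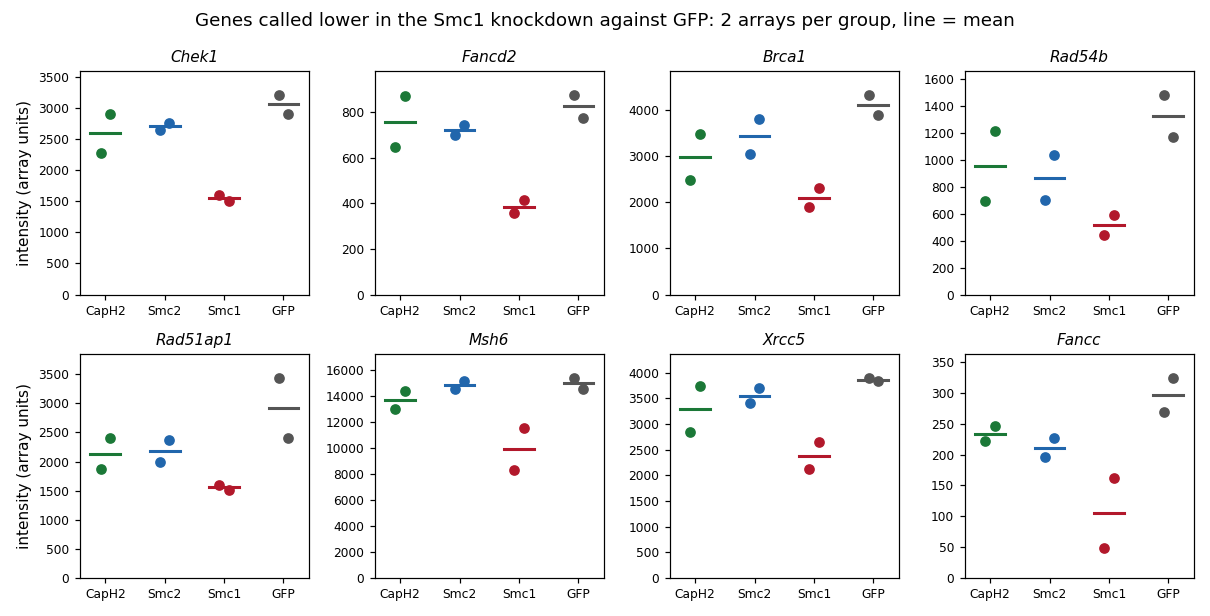
Intensity (linear scale, array units, axes start at 0) of the 8 genes called lower in Smc1 against GFP, with a point per array and a bar at each group mean. The Smc1 points lie below both GFP points in each of the 8 genes.

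Further probe sets of these genes gave a separate reading from the same arrays. The 40 genes had 49 of them, and 44 of the 49 were lower in Smc1 than in GFP, although 25 were below the array median on at least 1 array. The share over all probe sets was not computed, so this count has no background to be read against. Of Chek1, both further probe sets above the median on all 8 arrays had changes of -0.93 and -0.86 in Smc1 against GFP. That of Fancd2 had a change of -0.86, and another was below the median on both Smc1 arrays, so its difference has no firm size. All 3 of Rad51ap1 were below 0, the weakest at -0.50. Those of Brca1 had changes of -0.83 and -0.68, and another, below the median on 6 of the 8 arrays, of -0.01. Rad54b, Xrcc5 and Msh6 had no further probe set.

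The promoters of these genes were searched for E2F-type letters and for CCAAT, since 8 of the genes were called lower in the same comparison. From RefSeq on GRCm38.p6, the 250 bases before each gene's start were read for 35 promoters of 32 of the genes. E2F-type letters (TTTGGCGC, TTTCCCGC, TTTCGCGC or TTTGCCGC, on either strand) stood in 7 of the 35 promoters (20.0%), against 1.86% of 32851 promoters of all genes. The 7 belonged to Bard1, Brca2, Chek2, Fancg, Mdc1, Topbp1 and Xrcc6, none of which was called. CCAAT, on either strand, stood in 18 of the 35 (51.4%), against 33.8% of all promoters. Of the 8 genes that fell, 6 had a promoter in the table, and 5 of these 6 held CCAAT (83.3%), those of Brca1, Fancc, Msh6, Rad51ap1 and Xrcc5, while none held the E2F-type letters. Among the genes not called, 13 of 29 promoters held CCAAT (44.8%). With only 6 promoters of genes that fell, the difference between these shares was not tested. The matches describe letters in these windows and were not tested for binding.

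The 250 bases before the start are shown for 4 genes that fell in Smc1, and for Chek2, a kinase that was not called and carries both motifs. They run 5′ to 3′ on the strand of the gene, with CCAAT or its complement ATTGG, and the E2F-type letters, in capitals. Chek1 (chr9:36726659-36726908, minus strand) holds neither motif. Brca1 (chr11:101551956-101552205, minus strand) holds CCAAT 86 bases before its start, Rad51ap1 (chr6:126939588-126939837, minus strand) at 230 and 36 bases, and Msh6 (chr17:87974800-87975049, plus strand) at 34 bases. Chek2 (chr5:110839733-110839982, plus strand) holds CCAAT at 186 and 26 bases and an E2F-type match at 152 bases.
Chek1: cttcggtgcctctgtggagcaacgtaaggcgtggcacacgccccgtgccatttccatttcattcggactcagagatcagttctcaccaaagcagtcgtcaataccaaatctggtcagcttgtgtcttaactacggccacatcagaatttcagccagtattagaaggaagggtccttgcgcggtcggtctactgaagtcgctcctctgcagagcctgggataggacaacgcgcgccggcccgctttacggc
Brca1: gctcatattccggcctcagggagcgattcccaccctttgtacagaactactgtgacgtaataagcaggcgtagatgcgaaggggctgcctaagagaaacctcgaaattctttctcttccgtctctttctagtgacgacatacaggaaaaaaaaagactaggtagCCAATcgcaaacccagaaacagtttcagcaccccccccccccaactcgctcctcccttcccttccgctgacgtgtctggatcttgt
Rad51ap1: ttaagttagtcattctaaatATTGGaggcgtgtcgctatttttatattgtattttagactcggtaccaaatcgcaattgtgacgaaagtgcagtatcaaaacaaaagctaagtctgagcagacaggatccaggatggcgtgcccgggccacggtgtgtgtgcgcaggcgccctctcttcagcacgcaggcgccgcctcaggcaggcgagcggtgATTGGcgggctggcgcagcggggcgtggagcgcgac
Msh6: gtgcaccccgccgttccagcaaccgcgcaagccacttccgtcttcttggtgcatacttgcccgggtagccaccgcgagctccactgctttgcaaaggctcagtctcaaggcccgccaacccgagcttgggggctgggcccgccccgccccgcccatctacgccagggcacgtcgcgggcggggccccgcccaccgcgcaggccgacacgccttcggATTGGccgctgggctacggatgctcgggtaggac
Chek2: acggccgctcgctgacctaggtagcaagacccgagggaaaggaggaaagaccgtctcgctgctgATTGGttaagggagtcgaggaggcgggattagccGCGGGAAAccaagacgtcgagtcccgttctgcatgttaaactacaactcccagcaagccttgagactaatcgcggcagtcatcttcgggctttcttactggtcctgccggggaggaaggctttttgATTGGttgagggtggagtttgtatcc

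Neither condensin knockdown gave a call among the 40 genes. In CapH2 against GFP, none of the 40 was called by limma, where 0.0161% of all genes were, and at an unadjusted p under 0.05 there were 2 of the 40, against 12.6% of all genes. These were Trp53bp1, higher, and Brca1, which measured 2479.5 and 3485 on the CapH2 arrays, against 4326 and 3896 on the GFP arrays, with a change of -0.48 (SE 0.206, limma adjusted p = 0.386). Both CapH2 arrays lay below both GFP arrays for 9 of the 40 (22.5%), against 21.9% of all genes, and above both for 10 (25%), against 25.3% of all genes. These shares are near those of all genes. The median change of the 40 in CapH2 was -0.11, against 0.01 over all genes tested, and their range was -0.51 (Rad54b) to 0.55 (Trp53bp1).

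In Smc2 against GFP, none of the 40 was called either, where again 0.0161% of all genes were. At an unadjusted limma p under 0.05 there were 4 of the 40, against 12.6% of all genes. Trp53bp1 and Lig4 were higher, and H2ax and Rad50 were lower. H2ax measured 5543 and 7341 on the Smc2 arrays, against 9025 and 10883 on the GFP arrays, with a change of -0.63 (SE 0.262, limma adjusted p = 0.368). Rad50 measured 1319 and 1059.9 on the Smc2 arrays, against 1641 and 1889.8 on the GFP arrays, with a change of -0.57 (SE 0.219, limma adjusted p = 0.346). Both Smc2 arrays lay below both GFP arrays for 16 of the 40 (40%), against 21.7% of all genes, and above both for 7 (17.5%), against 23.1% of all genes. The median change of the 40 in Smc2 was -0.07, against -0.01 over all genes.

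The condensin knockdowns were also set against each other. None of the 40 was called in CapH2 against Smc2, where 0.00807% of all genes were, and 1 of the 40 had an unadjusted limma p under 0.05, against 1.03% of all genes. That gene was Lig4, with 449 and 403 on the CapH2 arrays, against 587 and 574 on the Smc2 arrays, and a change of -0.43 (SE 0.192, limma adjusted p = 1.000). The Smc2 arrays were the highest of the 8 for this gene. SEs of the 40 genes against GFP ran between 0.146 and 0.405 with a median of 0.206, which sets the size of difference that 2 arrays a group could resolve.

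The Smc1 arrays were then set against the mean of both condensin groups, a test of whether the cohesin knockdown differed from the condensin knockdowns. Chek1, Fancd2 and Msh6 were lower in Smc1 and no gene of the 40 was called higher. This is 7.5% of the 40, where 2.23% of all genes were called lower and 5.53% higher. At an unadjusted limma p under 0.05, none of the 40 was higher, against 14.6% of all genes. The changes were -0.76 (SE 0.149, limma adjusted p = 0.0177) for Chek1, -0.91 (SE 0.181, limma adjusted p = 0.0189) for Fancd2 and -0.55 (SE 0.133, limma adjusted p = 0.0367) for Msh6. Brca1, Xrcc5 and Fancc, which were called against GFP, had changes of -0.60 (SE 0.178, limma adjusted p = 0.0721), -0.52 (SE 0.157, limma adjusted p = 0.0734) and -1.16 (SE 0.351, limma adjusted p = 0.0756) here. Rad54b and Rad51ap1, also called against GFP, had changes of -0.77 (SE 0.260, limma adjusted p = 0.103) and -0.46 (SE 0.185, limma adjusted p = 0.167). The median of the 40 was -0.34, against 0.02 over all genes, with 38 of 40 below 0, against 47.1% of all genes. Without Smc1 replicate 1 none of the 40 was called, the Msh6 change was -0.31, and 9 of all genes were called, and without Smc1 replicate 2 Fancc and Msh6 were called. Without CapH2 replicate 1, Brca1 and Rad54b joined Chek1 and Fancd2 and Msh6 was not called. Without CapH2 replicate 2, and without either GFP replicate, Chek1 and Fancd2 were called, and Msh6 was not.

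**Figure D4:**
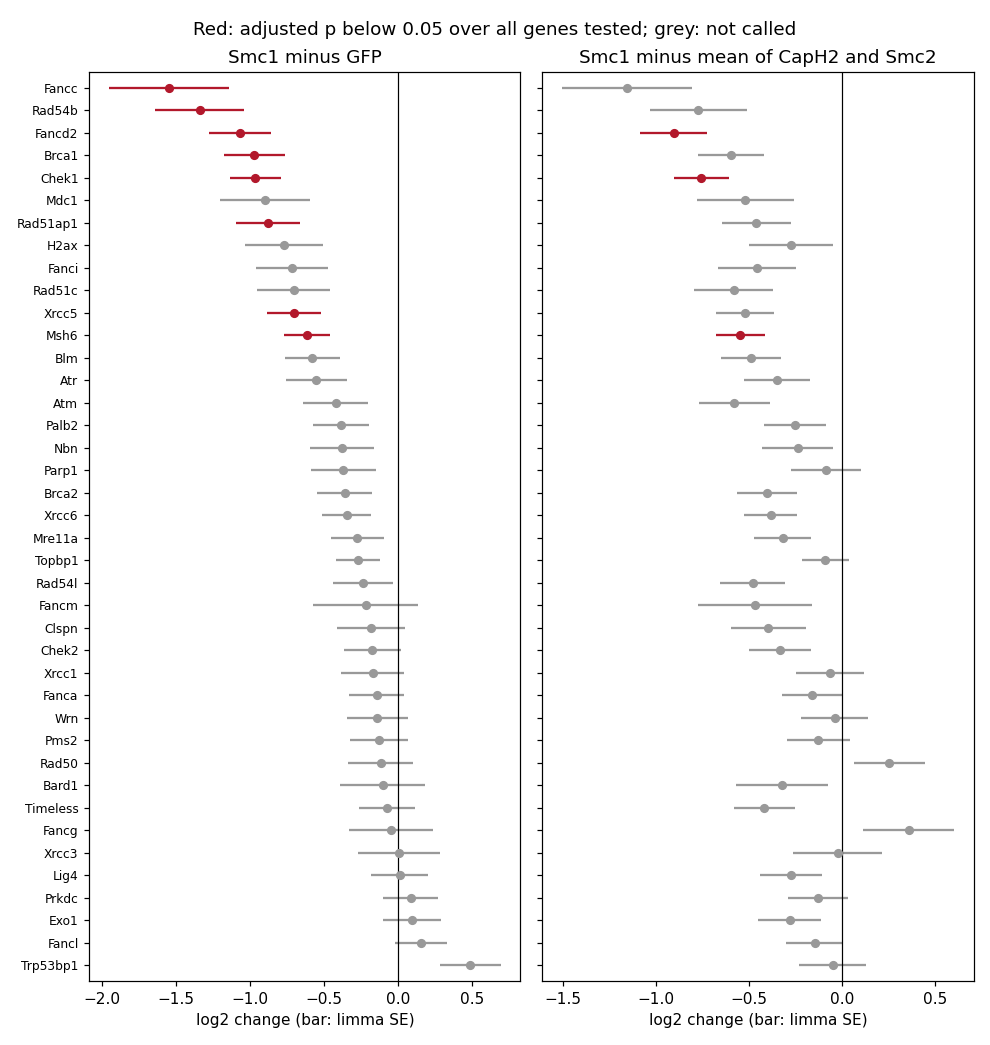
Log2 change of each of the 40 genes in Smc1 minus GFP (left) and in Smc1 minus the mean of CapH2 and Smc2 (right), with bars of 1 SE from limma and red for genes called. Most points lie left of 0, with 8 red on the left and 3 red on the right.

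In the Smc1 group, the arrays themselves differed in these genes. Smc1 replicate 1 was lower than replicate 2 for 30 of the 40, against 55.6% of all genes, and the median absolute difference between both arrays was 0.319 for the 40 and 0.231 for all genes. In the other groups the 40 differed less than all genes, with medians of 0.243 and 0.259 in CapH2, 0.180 and 0.296 in Smc2 and 0.154 and 0.224 in GFP for the 40 and for all genes. The first array was lower for 28 of the 40 in CapH2 (hairpin 3 against 4; 48.6% of all genes), 19 in Smc2 (55.2%) and 16 in GFP (52.6%). Between hairpins 3 and 4 the widest differences were -0.80 for Mdc1, -0.79 for Rad54b, -0.65 for Rad51c and 0.63 for Fancm. Across the 40 genes the difference between the CapH2 arrays and that between the Smc2 arrays correlated with r = 0.632, against 0.410 across all genes, and 27 of the 40 had the same sign in both. For the other pairs of groups r ran between -0.106 (CapH2 and GFP) and 0.570 (Smc1 and GFP). CapH2 and Smc1 had the same sign for 28 of the 40, with r = 0.260. The first array also had the lower Actb ratio in CapH2, Smc2 and Smc1 but not in GFP, and the part of this ratio was not tested. Genes of 1 array are not independent replicates, so no test is given. A term for the first against the second hairpin of CapH2 and Smc2 was added after the values were seen. With it, 15 of the 40 were called in Smc1 against GFP, of which 14 were lower and Trp53bp1 was higher, and 23.8% of all genes were called.

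**Figure D5:**
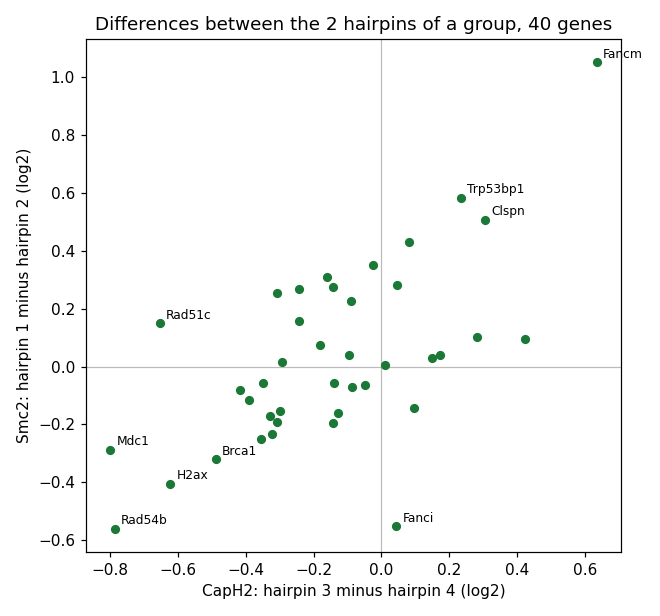
Difference between the first and the second array of the CapH2 group (hairpin 3 minus 4) and of the Smc2 group (hairpin 1 minus 2) in log2(intensity + 16), with a point for each of the 40 genes. The points run from lower left to upper right, with r = 0.632 across genes.

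Other genes of the same pathways were counted in Smc1 against GFP from lists of their own. Of 30 further double-strand break and crosslink repair genes tested, 1 fell, the resection nuclease gene Dna2, with 1971 and 2403 on the Smc1 arrays, against 3996 and 3736 on the GFP arrays and a change of -0.82 (SE 0.159, limma adjusted p = 0.0106). That is 3.33% of the list, near the 4.69% of all genes called lower, and the list's median change was -0.05. Of 12 further checkpoint genes, 2 fell (16.7%), Hus1 (a subunit of the checkpoint clamp) and Rad17 (its loader), with changes of -0.80 (SE 0.158, limma adjusted p = 0.0111) and -0.56 (SE 0.150, limma adjusted p = 0.0363). Of 25 base and nucleotide excision repair genes, Ung and Nthl1, both glycosylases of base excision, fell (8%), with changes of -0.96 and -0.88. None of the 3 further mismatch repair genes was called by limma, with a median of -0.55. At an unadjusted limma p under 0.05, 2 of the 3 were lower, again with no share of all genes to compare with. None of the genes of these 4 lists was called higher by limma, and at an unadjusted p under 0.05 there were 4 higher, all in the excision list (16%, against 18.7% of all genes). Without Smc1 replicate 1 or GFP replicate 1, none of these 4 lists had a call, and without GFP replicate 2 there was 1, in the checkpoint list. Without Smc1 replicate 2 there were 1, 1 and 2 in the break, checkpoint and excision lists.

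DNA replication genes and p53 targets were counted beside them. Of 23 replication genes tested, 6 fell in Smc1 (26.1%, against 4.69% of all genes), all 23 were below 0, and none was called higher at an adjusted or unadjusted limma p. Among them were Rrm2, which makes deoxyribonucleotides, with a change of -0.64 (SE 0.110, limma adjusted p = 0.00731), and Cdc45, part of the replicative helicase, with -0.94 (SE 0.251, limma adjusted p = 0.0350). Gins1, of the same helicase, fell too (-0.75), as did the primase gene Prim1 (-0.72). None of 19 genes of G2 and mitosis was called by limma, with a median of -0.32. At an unadjusted limma p under 0.05, 7 were lower and 1 was higher (5.26%, against 18.7% of all genes). For the 7 lower genes there is no share of all genes to compare with. Of 19 p53 targets, 5 rose (26.3%, against 9.3% of all genes) and 1 fell, with a median of 0.60 against 0.03 over all genes. Plk2, a kinase, rose by 1.56 (SE 0.318, limma adjusted p = 0.0129), Btg2, an antiproliferative gene, by 1.25 (SE 0.288, limma adjusted p = 0.0203), and Phlda3 and Ccng1 by 0.95 and 0.60. Rrm2b, a ribonucleotide reductase subunit, fell, with a change of -1.54 (SE 0.331, limma adjusted p = 0.0159). Plk2 and Rrm2b moved likewise in the condensin knockdowns, which share the GFP arrays, without a call. Plk2 had changes of 1.11 in CapH2 and 1.14 in Smc2, and Rrm2b of -1.35 and -1.11. In Smc1 against the condensin groups they had 0.44 and -0.31, neither called. Btg2, Phlda3 and Ccng1 had smaller changes of 0.40, 0.20 and 0.01 in CapH2 and 0.38, 0.35 and 0.10 in Smc2. Cdkn1a, the cell cycle inhibitor p21, had a change of 0.74 (SE 0.221, limma adjusted p = 0.0510) in Smc1 against GFP. In Smc1 against the condensin groups it was higher by 1.41 (SE 0.191, limma adjusted p = 0.00542). That difference also holds lower condensin values, with Cdkn1a changes against GFP of -0.72 in CapH2 and -0.62 in Smc2. Neither was called (limma adjusted p = 0.290 and 0.315). Without Smc1 replicate 1 or GFP replicate 1, no replication gene was called, and without Smc1 replicate 2 or GFP replicate 2 there were 3. No p53 target was called when any single Smc1 or GFP array was left out. With the Actb ratio as a covariate, 2 replication genes and no p53 target were called. The lower stem cell markers and higher trophectoderm markers given above moved in the same comparison, and their part in these changes was not tested. The primitive endoderm sum was above GFP in the CapH2 knockdown as well as in Smc1. In Smc2 the sum overlapped GFP, while the median change of the tested primitive endoderm markers was 0.39. The part of these markers was not tested either.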

How the data were processed

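The values are the intensities that the authors deposited, 1 linear value per probe set and array. Per the file headers and labels they come from Affymetrix arrays; how probes were summarised was not stated in the sources read. Trimmed means (2%) of the 8 arrays lay between 488.9 and 490.0, so the arrays had already been scaled. Per the labels, the CapH2 and Smc2 arrays each hold 1 hairpin, and the Smc1 and GFP arrays are replicates of 1 hairpin, so p-values measure the spread between these arrays alone.

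Of 44903 probe sets, 34758 had 1 gene symbol and no control status, 926 had several symbols and were left out, and the brightest of each gene stood for it. Genes above the array median on at least 2 of 8 arrays were tested. Group means of log2(intensity + 16) were fitted to all 8 arrays with limma 3.58.1 in R 4.3.3 (prior variance following intensity; 4 residual degrees of freedom, 5.97 prior), with Benjamini-Hochberg adjustment over 12394 genes. The fit was run on simulated data with independent noise for each gene. Such data hold no effect shared by the genes of an array, so the run cannot show how the calls respond to one. The members and lists were chosen with earlier results of these data known. All members and the targeted genes are named, and of each other list up to 4 genes called in each direction, by smallest adjusted p.

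Alternatives were quantile normalization, median centring, pseudocounts of 1 and 64, no filter, the mean of a gene's probe sets, no trend, a replicate block, the Actb ratio as a covariate, a hairpin term and leaving out each array. The number of arrays limits the precision.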

Additional observations from a re-analysis of the deposited data

How the results depend on the processing

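No call among the 40 genes changed direction under any of the 18 alternatives. Several of these cannot move the estimates of Smc1 against GFP, so no sign could change there. They are the filter, the intensity trend, the replicate block, the hairpin term and leaving out a CapH2 or Smc2 array. In Smc1 against GFP, 8 of the 40 were called. The number was 8 with quantile normalization, median centring and pseudocounts of 1 and 64, and 6 without the filter (not Fancc and Msh6) and with the mean of all probe sets (not Brca1, at -0.62, and Fancc). It was 4 without the intensity trend (Chek1, Brca1, Rad54b and Fancd2), 1 with the Actb ratio as a covariate, and 15 with the hairpin term, which was chosen after seeing the data. Leaving out 1 array gave between 0 and 9. Against both condensin groups, 3 were called, 4 with quantile normalization or the Actb covariate, 6 with median centring and 8 with the hairpin term. Without the filter or without the intensity trend there were 2, Chek1 and Fancd2. With the mean of all probe sets there were also 2, Fancd2 and Msh6. Chek1 lost its call in that setting, with a change of -0.54 (limma adjusted p = 0.0634). The calls with 1 array left out are given above. With the condensin groups against GFP or each other, none of the 40 was called in any alternative. The cause of these differences was not tested.

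The median change of the 40 in CapH2 was 0.047 with the Actb covariate, against -0.11, and in Smc2 it was 0.0323 with median centring, against -0.07. In Smc1 against both condensin groups it ran between -0.47 and -0.25 when 1 array was left out. With a replicate block for the Smc1 and GFP arrays, which share replicate numbers, 8 of the 40 were called against GFP and 2 against the condensin groups, and 1366 of all genes against GFP, where 1734 were without it. Deviations of the same-numbered Smc1 and GFP arrays correlated with r = 0.570 across the 40 genes and 0.0667 across all genes. The labels tie the numbers to no shared culture or day, and whether they pair the arrays was not settled.

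With 2 arrays a group the median SE of the 40 was 0.206, and signals near the array median, such as Fancc in Smc1, carry little weight.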
